A study of Canis lupus with 23 samples.

Results

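A set of 8 genes of cholesterol synthesis and its control were followed across canine tumors: HMGCS1, SQLE, LSS, IDI1, FDFT1, DHCR7, INSIG1 and SREBF2. They were chosen by the symbol that the platform annotation gives a probeset, and the probesets of a gene were averaged. Of the 8 genes, 7 had a named probeset, out of 15115 genes on the array with 1 symbol. IDI1, the isomerase that makes the isoprenoid building block dimethylallyl diphosphate, had no named probeset and was not analysed here. LSS was carried by 1 dim probeset that passed the filter on low values on none of the arrays, so 6 members entered the tests.

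Tumor biopsies from untreated pet dogs with naturally occurring cancer were each read on 1 Affymetrix Canine Genome 2.0 array, which measures messenger RNA with short oligonucleotide probes. The 23 tumors were 7 lymphomas (of lymphocytes), 5 melanomas (of pigment cells), 4 sarcomas (of connective tissue), 3 transitional cell carcinomas (TCC, of the bladder lining), and 1 each of hepatocellular carcinoma (HCC, of liver cells), nasal tumor, histiocytic sarcoma and HSA (the study lists a hemangiosarcoma, which arises from blood vessel lining). The 4 sarcomas join 2 tumors titled STS and 2 titled sarcoma. Part of the enrollment was by breed, with Scottish terriers for bladder tumors and golden retrievers for lymphomas. The melanoma cohort was planned for American cocker spaniels and later took all breeds. The breed of each dog was not used here, so differences between tumor types cannot be told apart from differences between breeds. Normal tissue was not analysed here, and no test was made for a type with a single tumor. A biopsy holds several cell types, so fewer cells of a type and less RNA per cell cannot be told apart.

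Cells make cholesterol from acetyl-CoA through mevalonate, farnesyl diphosphate, squalene and lanosterol, or take it up in lipoproteins. SREBP2, the protein of SREBF2, is the transcription factor that switches the synthesis and uptake genes on when membrane sterol is low. INSIG1 holds its precursor in the endoplasmic reticulum when sterol is plentiful, and is itself an SREBP target. The liver is a main site of cholesterol synthesis in mammals.

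All levels below are log2(signal + 16), the log2 of the deposited array signal after adding 16. Adding 16 makes differences of dim genes look smaller. For each of the 4 replicated types, limma gave the difference from the other 3, each counted equally, on 19 tumors, with p-values adjusted over the 9972 genes that passed the filter. A high level in 1 type thus pulls down the difference of each of the other 3. Calling a gene needed both an adjusted p below 0.05 and a difference of 1 log2 unit or more.

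The array signals were scaled to a common mean by the authors, and the median signal ran from 82.4 to 133 over the 23 arrays. Marker lists for liver, general epithelium and pigment cells followed the diagnoses, but a list of 6 squamous epithelium genes did not. The mean level of 16 hepatocyte genes was 13.2 in the HCC and at most 5.80 elsewhere, and 3 of these 16 passed the filter. The mean of 10 epithelial genes was 10.82 to 11.02 in the TCC, 8.68 in the HCC and 10.2 in the nasal tumor, against 5.32 to 6.93 in the other tumors. The 10 melanocyte genes averaged 9.63 to 10.3 in the melanomas and at most 6.17 elsewhere. The 6 squamous epithelium genes averaged 10.01 in melanoma 0, above the 3 TCC (7.83 to 8.27), and 7.14 and 6.92 in melanomas 1 and 4. They averaged 5.47 and 5.33 in melanomas 2 and 3. The part of squamous cells in the melanoma levels below was not tested. The 10 skeletal muscle genes averaged 11.1 in the histiocytic sarcoma, above every other tumor (4.96 to 7.46).

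The carcinomas held most of the high values. As the mean over the 7 measured members of each gene's z-score (its distance from its mean over 23 tumors, in SDs), the HCC was highest at 2.07, followed by TCC 2 (1.22), TCC 1 (0.63), the nasal tumor (0.56) and TCC 0 (0.29). The histiocytic sarcoma (-0.92), melanoma 2 (-0.71) and the HSA (-0.70) were lowest. The lymphomas lay between -0.35 and 0.14, the melanomas between -0.71 and -0.13 and the sarcomas between -0.54 and 0.07. The 3 TCC lay above the lymphomas, melanomas and sarcomas in this mean, but not once the dim LSS was left out. Over the 6 kept members TCC 0 was at 0.136, against 0.342 in lymphoma 3, 0.184 in lymphoma 0 and 0.136 in STS 1.

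**Figure D1:**
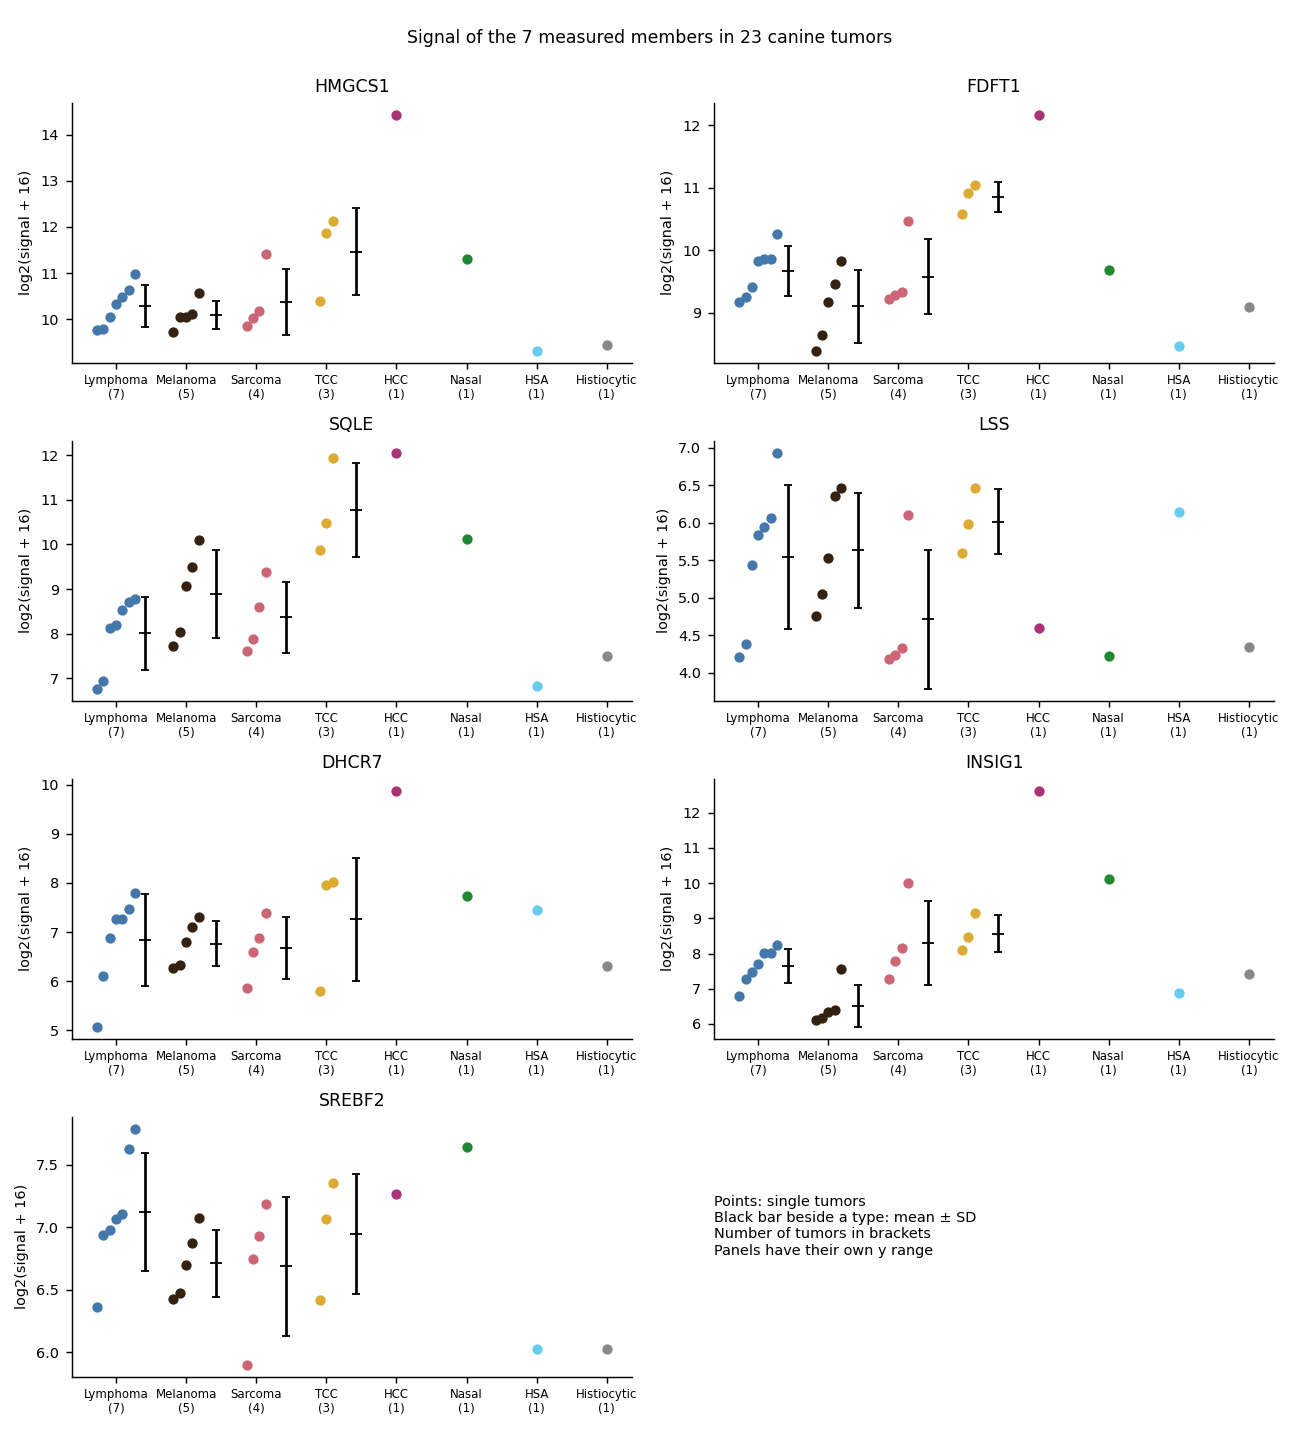
Level of each measured member in each tumor, as log2(signal + 16) on the y axis and tumor type on the x axis, with 1 point a tumor and the mean ± SD beside each type of 3 or more tumors. The HCC is the highest point for HMGCS1, FDFT1, SQLE, DHCR7 and INSIG1, and the 3 TCC lie above all lymphomas, melanomas and sarcomas for FDFT1.

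Among the 4 replicated types, TCC held most of the calls. The synthesis enzymes HMGCS1, FDFT1 and SQLE were called higher in TCC and DHCR7 was not, which is 3 of 6 tested members against 6.82% of all genes tested. None of the 6 was called lower in TCC, against 4.36% of all genes. The median log2 fold change of the 6 members in TCC was 1.15, and that of all kept genes was -0.08. With TCC set against all 20 other tumors, the HCC among them, 0 of the 6 were called.

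HMGCS1, the cytosolic synthase that makes HMG-CoA on the way to mevalonate, measured 10.38, 11.88 and 12.13 in TCC 0, TCC 1 and TCC 2. It ran from 9.76 to 10.98 in lymphoma (median 10.32), was 10.10, 10.57, 10.04, 9.73 and 10.04 in melanomas 0 to 4, and 10.18, 11.42, 9.86 and 10.03 in STS 0, STS 1, sarcoma 0 and sarcoma 1. TCC 0 lay within the range of the other types, and STS 1 lay above TCC 0. HMGCS1 was higher in TCC by a log2 fold change of 1.21 (SE 0.34, limma, adjusted p = 0.0217). The call rested on TCC 1 and TCC 2: it was 1.01 without TCC 1 (adjusted p = 0.159) and 0.88 without TCC 2 (adjusted p = 0.200). Its 3 probesets gave 1.02, 1.24 and 1.38 in TCC.

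FDFT1, squalene synthase, commits farnesyl diphosphate to sterols. It measured 10.58, 10.91 and 11.04 in TCC 0 to 2, against 9.17 to 10.26 in lymphoma (median 9.83). The melanomas had 9.46, 9.83, 8.65, 8.39 and 9.18, and STS 0, STS 1, sarcoma 0 and sarcoma 1 had 9.22, 10.47, 9.29 and 9.34. Every TCC lay above every tumor of the other 3 types. The log2 fold change was 1.40 (SE 0.30, adjusted p = 0.00353), and it stayed called with each of the 19 tumors left out in turn (1.30 to 1.53).

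SQLE, squalene epoxidase, carries out the oxygen-dependent step from squalene towards lanosterol. It measured 9.88, 10.48 and 11.93 in TCC 0 to 2, against 6.77 to 8.78 in lymphoma (median 8.19). In melanomas 0 to 4 it was 9.50, 10.10, 8.04, 7.73 and 9.07, and in STS 0, STS 1, sarcoma 0 and sarcoma 1 it was 7.61, 7.87, 9.39 and 8.60. The TCC lay above all lymphomas and sarcomas and overlapped melanoma 1. Its log2 fold change of 2.34 in TCC (SE 0.52, adjusted p = 0.00463) was 1.76 (adjusted p = 0.0742) without TCC 2.

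SQLE also had the member call in lymphoma. It was lower in lymphoma by a log2 fold change of -1.33 (SE 0.39, adjusted p = 0.0141), the 1 of 6 members called lower there, against 12.1% of all genes. None was called higher in lymphoma, against 6.95% of all genes. Lymphomas 1 and 4 had the lowest SQLE of the type at 6.95 and 6.77, and the other 5 lymphomas had 8.12 to 8.78. The SQLE call was kept with each of the 19 tumors left out. The mean of the other 3 types holds the high TCC, and directly SQLE differed from lymphoma in TCC (lymphoma minus TCC -2.76, adjusted p = 0.00151) but was not called between lymphoma and melanoma (-0.88, adjusted p = 0.202) or lymphoma and sarcoma (-0.36, adjusted p = 0.649).

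DHCR7 reduces the last double bond on the way to cholesterol. It measured 5.80, 7.95 and 8.01 in TCC 0 to 2, against 5.07 to 7.80 in lymphoma (median 7.26), 6.27 to 7.32 in melanoma and 5.87 to 7.39 in sarcoma. TCC 0 lay near the bottom and TCC 1 and TCC 2 above every lymphoma, melanoma and sarcoma, so the TCC did not move as a group. The log2 fold change in TCC was 0.50 (SE 0.51, adjusted p = 0.586). DHCR7 varied more within types than most genes, with a within-type SD of 0.84 against a median of 0.57 over all kept genes.

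LSS, lanosterol synthase, closes squalene epoxide into the first sterol. Its probeset stayed near the noise: 9 of 23 arrays were below a signal of 16, and the highest level was 6.93 in lymphoma 2. It measured 6.46, 5.60 and 5.98 in TCC 0 to 2, against 4.21 to 6.93 in lymphoma, 4.75 to 6.46 in melanoma and 4.18 to 6.10 in sarcoma. Fitted without the filter, it differed between TCC and the other types by 0.72 (SE 0.51, adjusted p = 0.487). LSS levels at this signal give no order of the tumor types.

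Neither regulator, INSIG1 or SREBF2, was called in TCC with all 19 tumors. INSIG1, the SREBP retention factor, measured 6.10 to 7.55 in melanoma (7.55, 6.34, 6.41, 6.10 and 6.17 in melanomas 0 to 4). It was 6.81 to 8.23 in lymphoma (median 7.70), 7.27, 8.17, 7.79 and 9.9997 in STS 0, STS 1, sarcoma 0 and sarcoma 1, and 8.09, 8.47 and 9.15 in TCC 0 to 2. Melanomas 1 to 4 lay below every tumor of the other 3 types, and melanoma 0 overlapped them. INSIG1 was lower in melanoma by a log2 fold change of -1.66 (SE 0.36, adjusted p = 0.00878), the 1 of 6 members called lower, against 1.77% of all genes. None was called higher in melanoma, against 2.55% of all genes. Its log2 fold change in TCC was 1.08 (SE 0.43, adjusted p = 0.110), and 1.27 (adjusted p = 0.019) without sarcoma 1 and 1.28 (adjusted p = 0.0251) with the STS alone as sarcomas, both of which were calls.

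The INSIG1 call in melanoma needed the fainter of the gene's 2 probesets. The fainter probeset ran from 4.15 to 6.66 in melanoma, against 5.10 to 7.41 in lymphoma, 6.09 to 8.32 in sarcoma and 6.53 to 7.60 in TCC, and was below a signal of 16 on 4 arrays. The brighter probeset ran from 8.06 to 8.44 in melanoma, against 8.23 to 9.49 in lymphoma, 8.45 to 11.7 in sarcoma and 9.65 to 10.7 in TCC. With the brighter probeset alone the log2 fold change was -1.20 and the call was lost (adjusted p = 0.0661). Both probesets were thus lower in melanoma, by -2.12 and -1.20, and the fainter one by more.

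SREBF2 showed no call in any of the 4 comparisons. It measured 7.07, 6.42 and 7.36 in TCC 0 to 2, against 6.36 to 7.79 in lymphoma, 6.43 to 7.07 in melanoma and 5.90 to 7.18 in sarcoma, with all 4 types overlapping. The log2 fold change was 0.34 in lymphoma (SE 0.24, adjusted p = 0.295), -0.21 in melanoma, -0.24 in sarcoma and 0.11 in TCC. Its 3 probesets disagreed. The brightest was 7.31 to 8.48 in lymphoma, against 6.496 to 7.72 in melanoma, 4.80 to 7.96 in sarcoma and 6.69 to 7.34 in TCC, a log2 fold change of 1.08 in lymphoma (adjusted p = 0.0276 with that probeset alone), whereas the other two gave -0.08 and 0.02.

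**Figure D2:**
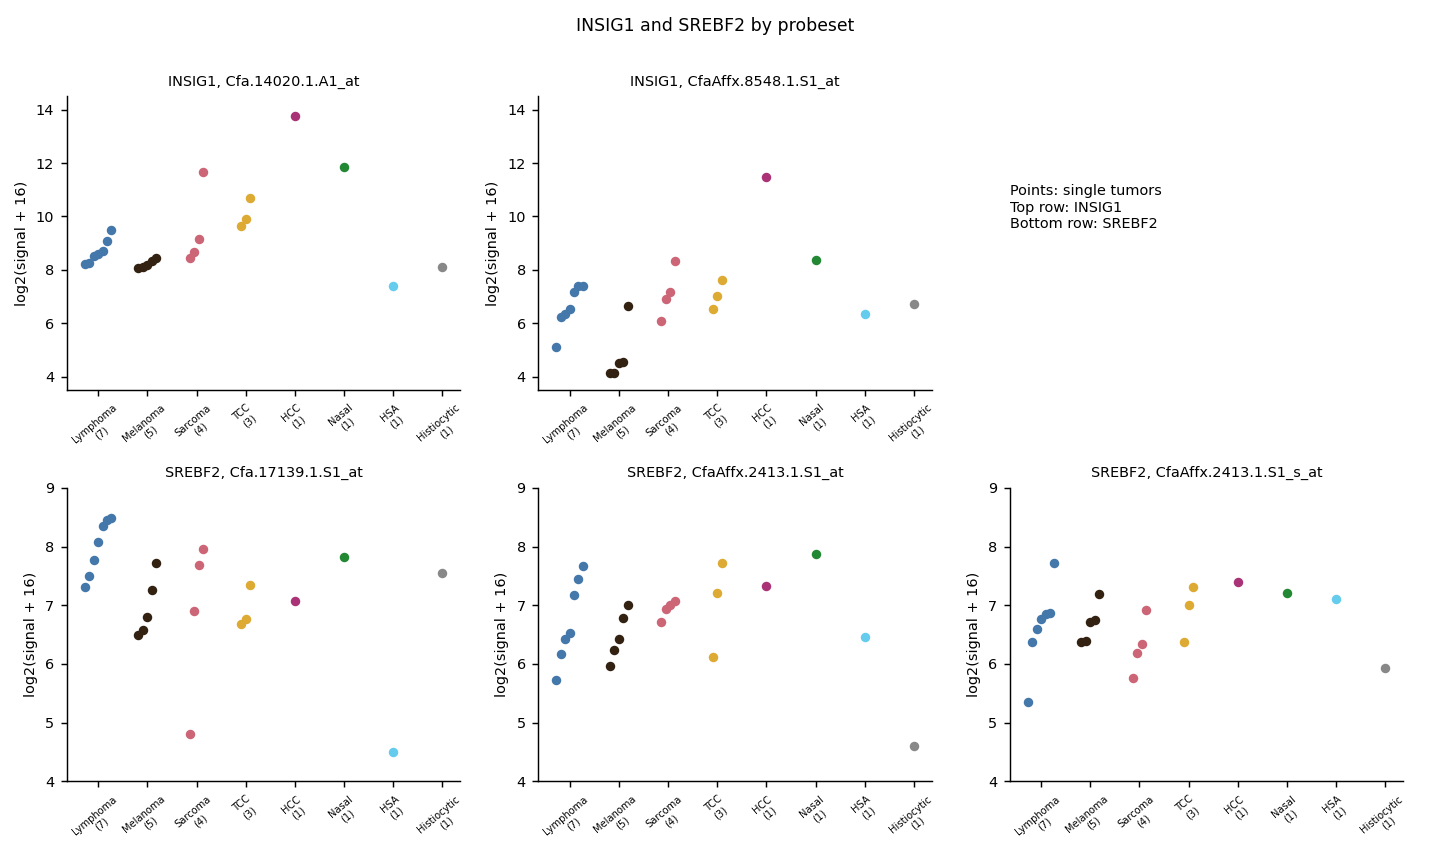
Level of each probeset of INSIG1 (top) and SREBF2 (bottom) as log2(signal + 16) on the y axis by tumor type on the x axis, 1 point a tumor. Melanomas are low for both INSIG1 probesets, most in the fainter at 4.15 to 6.66, and lymphomas are high for 1 of 3 SREBF2 probesets, at 7.31 to 8.48.

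In sarcoma none of the 6 members was called higher, against 4.33% of all genes, or lower, against 1.71% (limma). None passed an unadjusted p under 0.05 either. Sarcoma 1 had INSIG1 at 9.9997, against 7.27 to 8.17 in the other 3 sarcomas, and its HMGCS1 (10.03), FDFT1 (9.34) and SQLE (8.60) lay within the range of the other sarcomas. STS 1 was the sarcoma with the highest HMGCS1 (11.42) and FDFT1 (10.47). FDFT1 in melanoma had a log2 fold change of -0.93 (SE 0.25, adjusted p = 0.0339), under the fold needed for a call.

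**Figure D3:**
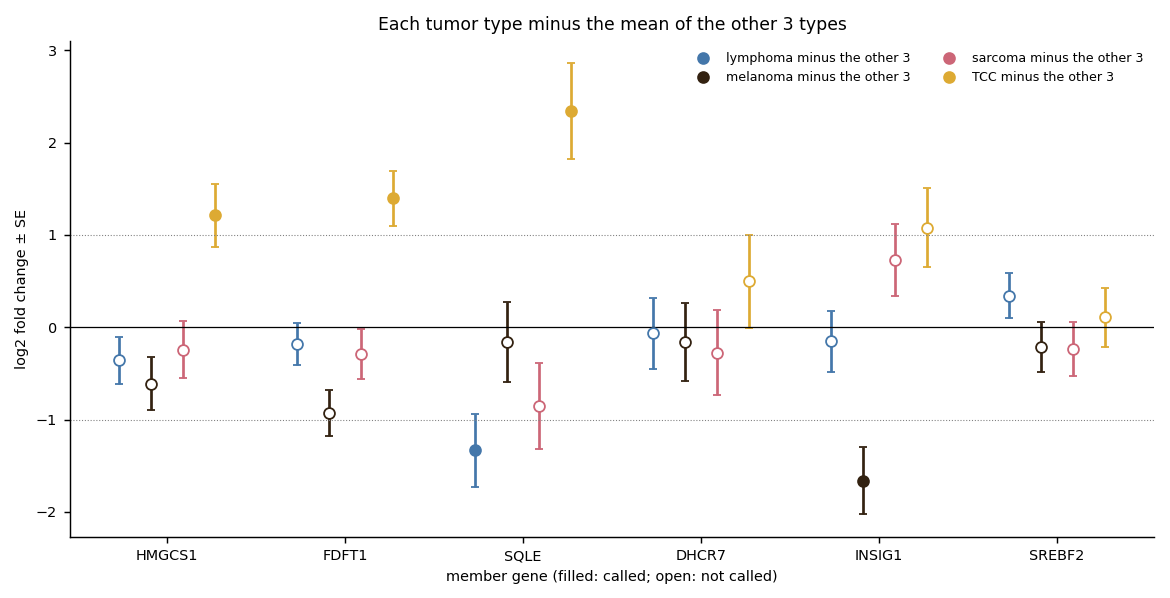
Log2 fold change (y axis, points with SE bars) of each tested member in each type minus the mean of the other 3 types, filled where called. HMGCS1, FDFT1 and SQLE are called higher in TCC (1.21, 1.40 and 2.34), SQLE lower in lymphoma (-1.33) and INSIG1 lower in melanoma (-1.66).

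Over the 4 types together, 4 of the 6 members passed limma's F test, against 35.6% of all genes. These were FDFT1 (adjusted p = 0.00493), SQLE (0.00576), INSIG1 (0.00790) and HMGCS1 (0.0426), and DHCR7 (0.838) and SREBF2 (0.542) did not pass. Between pairs of types, 10 of 36 gene and pair combinations were called, against 11.8% of all combinations, and 8 of the 10 set TCC against another type. The order of mean levels for FDFT1 was TCC, lymphoma, sarcoma, melanoma, and TCC differed from each of the other 3, with no call among those 3. For HMGCS1 the order was TCC, sarcoma, lymphoma, melanoma, and TCC differed from lymphoma (lymphoma minus TCC -1.18, adjusted p = 0.0279) and melanoma (melanoma minus TCC -1.37, adjusted p = 0.0297) but was not called against sarcoma (sarcoma minus TCC -1.09, adjusted p = 0.0994). For SQLE the order was TCC, melanoma, sarcoma, lymphoma, and TCC was called against sarcoma and lymphoma but not melanoma (melanoma minus TCC -1.87, adjusted p = 0.0520). For INSIG1 the order was TCC, sarcoma, lymphoma, melanoma, and melanoma was called against each of the other 3. It was called against TCC (melanoma minus TCC -2.05, adjusted p = 0.0112). The other calls sat close to the threshold (lymphoma minus melanoma 1.13, adjusted p = 0.0495, and melanoma minus sarcoma -1.79, adjusted p = 0.0481).

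The HCC stood above the other 22 tumors in 5 of the 6 kept members, as did 9.21% of all kept genes. In the same 5 it exceeded the mean of the other 22 by at least 2 log2 units, against 4.83% of all kept genes. INSIG1 was 12.62 in the HCC, against a mean of 7.70 in the other 22 (SD 1.09), a difference of 4.92. HMGCS1 was 14.43, against 10.38 (SD 0.75), a difference of 4.05 or 16.6-fold in signal + 16. SQLE was 12.05 in the HCC, against 8.67 (SD 1.31), but TCC 2 came within 0.12 of it. DHCR7 was 9.87, against 6.89 (SD 0.775), and FDFT1 was 12.16, against 9.60 (SD 0.72).

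SREBF2 was not among the 5. It was 7.26 in the HCC, against a mean of 6.85 in the other 22 (SD 0.52), and ranked the fifth of 23. LSS was 4.59, against 5.39 (SD 0.91), in the noise range of its probeset. By probeset, the 3 of SREBF2 differed from the mean of the other 22 by -0.14, 0.64 and 0.75 in the HCC, the 3 of HMGCS1 by 3.18, 4.40 and 4.58 and the 2 of INSIG1 by 4.78 and 5.05. Over the 7 measured members the mean difference in the HCC was 2.50, with an SD of that mean of 0.52 over the other 22 tumors.

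The nasal tumor was high in part of the set. INSIG1 was 10.11, against a mean of 7.82 in the other 22 (SD 1.43), the 1 of 6 kept members above by at least 2 log2 units, against 3.1% of all kept genes. SQLE was 10.11 there, against 8.76 (SD 1.46), SREBF2 was 7.64, against 6.83 (SD 0.50), and FDFT1 was 9.68, against 9.72 (SD 0.91). The mean difference over the 7 measured members was 0.68, within the SD of 0.73 over the other 22.

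The HSA and the histiocytic sarcoma were low in most members. HMGCS1 was 9.31 in the HSA, the lowest of 23 and 1 of 6 kept members so, against 3.29% of all kept genes, and 9.43 in the histiocytic sarcoma, the next lowest. SQLE was 6.82 in the HSA, against a mean of 8.91 in the other 22 (SD 1.42), the 1 kept member lower by at least 2 log2 units, against 1.67% of all kept genes. In the histiocytic sarcoma none of the 6 differed by that much downwards, against 1.28% of all kept genes, and SQLE was 7.504, against 8.87. SREBF2 was 6.02 in each of these tumors, with a mean of 6.91 in the other 22 for each. In each tumor a different 1 of its 3 probesets was below a signal of 16 and pulled this mean down. That signal was 6.63 in the HSA, where the other probesets were at levels of 6.47 and 7.101. It was 8.19 in the histiocytic sarcoma, where the others were at 5.93 and 7.55. DHCR7 went the other way in the HSA, at 7.45, against 7.002. The mean difference over the 7 members was -0.77 in the HSA and -0.92 in the histiocytic sarcoma. The SD over the other 22 was 0.73 and 0.72, in each case widened by the HCC. The mean of 12 macrophage genes was highest in these 2 tumors, at 11.6 in the HSA and 11.8 in the histiocytic sarcoma, and at most 10.4 in all others, and its part in these levels was not tested.

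The other enzymes of the pathway were taken from a textbook list of which 14 had a named probeset and 13 passed the filter. In TCC 4 of the 13 were called higher, against 6.82% of all genes, and 1 lower, against 4.36%. TM7SF2, a sterol reductase that acts just after lanosterol demethylation, was 9.03, 9.19 and 9.80 in TCC 0 to 2, against 4.35 to 6.57 in lymphoma (median 6.12), 5.13 to 5.90 in melanoma and 6.46 to 7.54 in sarcoma. No TCC overlapped another type, and the log2 fold change was 3.17 (SE 0.39, adjusted p = 9.57e-06). MSMO1, the sterol methyl oxidase, rose by 1.95 (SE 0.36, adjusted p = 0.00108), ACAT2, the thiolase that opens the pathway, by 1.59 (SE 0.23, adjusted p = 7.31e-05) and HSD17B7, a sterol ketoreductase, by 1.53 (SE 0.31, adjusted p = 0.00223).

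MVD, the mevalonate diphosphate decarboxylase, ran against them in TCC, with a log2 fold change of -1.10 (SE 0.32, adjusted p = 0.0274) that lost its call without TCC 0 (-1.13, adjusted p = 0.0915) or TCC 2 (-0.66, adjusted p = 0.288). The median log2 fold change of the 13 in TCC was 0.56, against -0.08 over all kept genes. In melanoma 2 of the 13 were called lower, against 1.77% of all genes. These were TM7SF2 (-1.73, adjusted p = 0.00259) and MSMO1 (-1.22, adjusted p = 0.0224). The mean of the other 3 types holds the high TCC. In both genes melanoma overlapped lymphoma, for MSMO1 at 7.40 to 8.35 against 6.97 to 9.10. The MSMO1 call was lost without melanoma 2 (-1.16, adjusted p = 0.0608) or melanoma 3 (-1.11, adjusted p = 0.0661). LBR, a nuclear envelope protein with the same sterol reductase activity as TM7SF2, was higher in lymphoma (1.19, adjusted p = 0.000214) and lower in sarcoma (-1.13, adjusted p = 0.00790). TM7SF2 was called lower in lymphoma (-1.52, adjusted p = 0.000643), but against a mean that holds the high TCC. For TM7SF2 lymphoma (4.35 to 6.57) overlapped melanoma (5.13 to 5.90) and sarcoma (6.46 to 7.54).

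**Figure D4:**
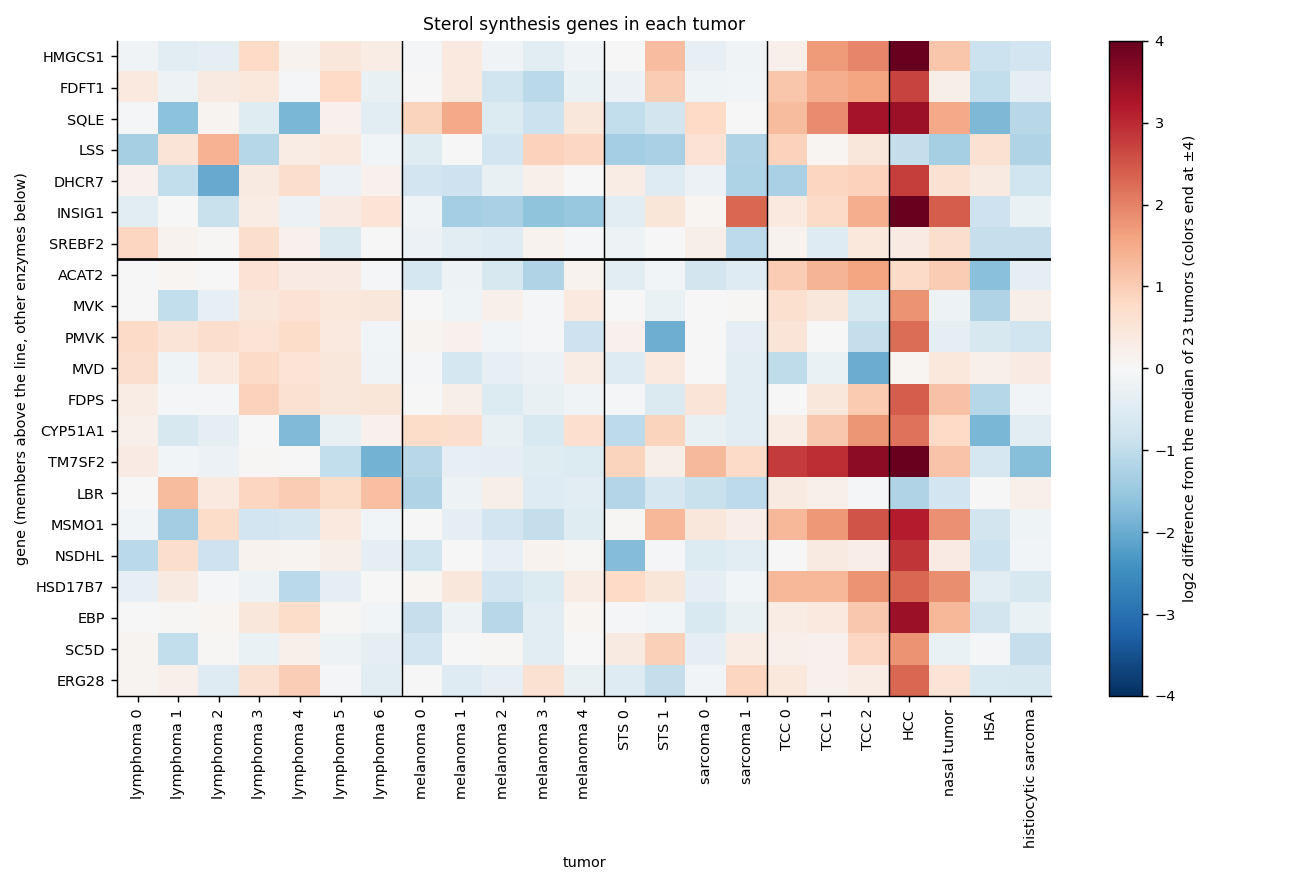
Difference of each gene (rows) from its median over 23 tumors (columns), in log2 units as color that ends at ±4. Red marks most genes in the column of the HCC and, for FDFT1, SQLE, TM7SF2, MSMO1 and HSD17B7, the 3 TCC. SREBF2 and LSS show no such block, and in the HCC LBR is low and MVD near its median.

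In the HCC 11 of the 14 other enzymes were the highest of 23 tumors. Of the 13 that passed the filter, 10 were the highest, against 9.21% of all kept genes, and 9 exceeded the mean of the other 22 by at least 2 log2 units, against 4.83%. TM7SF2 was 11.96 in the HCC, against a mean of 6.49 (SD 1.42), and EBP, the sterol isomerase, was 13.81, against 10.39 (SD 0.59). The 3 of 14 that were not the highest were ACAT2 (10.89, against 10.13), MVD (7.58, against 7.43) and LBR (8.56, against 9.75), level with the next lowest tumor at 8.57.

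**Figure D5:**
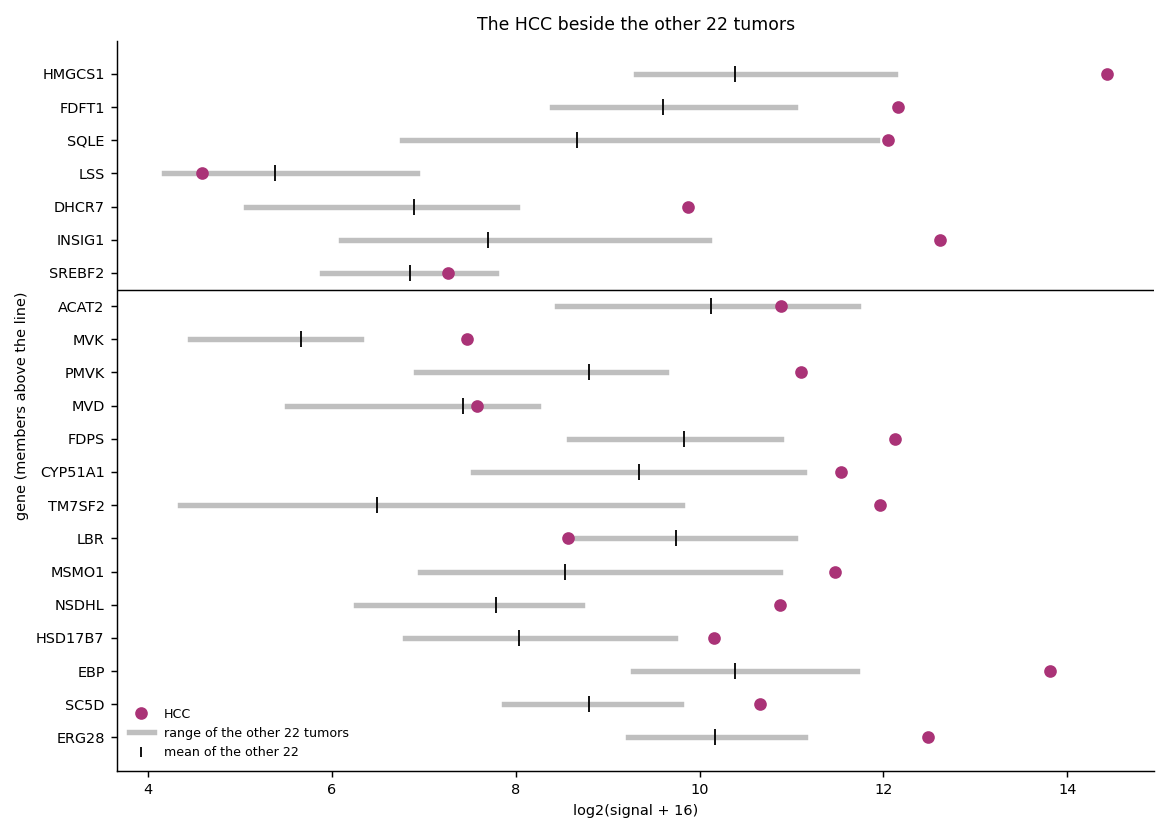
Level of members and other sterol enzymes in the HCC (points) beside the range (bars) and mean (ticks) of the other 22 tumors, as log2(signal + 16) on the x axis and genes on the y axis. The HCC lies outside the range of the others for 5 of 7 members and 11 of 14 other enzymes on the high side, and at the low end of that range for LBR.

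Among 7 other regulators of SREBP, 1 was called higher in TCC, against 6.82% of all genes, and none lower, against 4.36%. It was SREBF1, the gene of the SREBP form more linked to fatty acids (1.40, SE 0.41, adjusted p = 0.0279). The call was lost when any of TCC 0, TCC 1 or TCC 2 was left out (1.40, 1.56 and 1.23, adjusted p = 0.106, 0.0673 and 0.154). None of the 7 was called in lymphoma, melanoma or sarcoma (limma), but 2, 0 and 1 had an adjusted p under 0.05 and missed the fold needed. The 2 in lymphoma went opposite ways, SREBF1 lower (-0.87, adjusted p = 0.0377) and SPRING1 higher (0.83, adjusted p = 0.0330). In sarcoma it was INSIG2 (0.85, adjusted p = 0.0382). SPRING1 and INSIG2 were named after their values were seen.

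Genes of uptake and of lysosomal and carrier transport moved in both directions. In lymphoma 3 of 10 were lower, against 12.1% of all genes, and none higher, against 6.95%. The 3 were MYLIP, a ubiquitin ligase (-1.43, adjusted p = 0.00135), VLDLR, a lipoprotein receptor (-1.44, adjusted p = 0.00847) and LRPAP1, a chaperone of lipoprotein receptors (-1.07, adjusted p = 0.000241, at -0.98 and under the fold needed without lymphoma 6). In TCC VLDLR was higher (2.01, adjusted p = 0.0126), but not called without TCC 0 (1.77, adjusted p = 0.0985) or TCC 2 (1.85, adjusted p = 0.0810). STARD4, a cytosolic sterol carrier, was lower in TCC (-1.97, adjusted p = 0.00228) and so was LIPA, the lysosomal lipase that frees cholesterol from its esters (-1.26, adjusted p = 0.0356). The LIPA call was lost without TCC 1 (-0.75, adjusted p = 0.345) or TCC 2 (-1.35, adjusted p = 0.0892). NPC2, a lysosomal cholesterol carrier, was higher in melanoma (1.12, adjusted p = 0.0219), but not without melanoma 0 (0.98, adjusted p = 0.0697) or melanoma 4 (0.92, adjusted p = 0.0761).

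Of 8 genes of efflux, storage and oxidation, 1 was called higher in lymphoma, against 6.95% of all genes, and 1 lower, against 12.1%. NR1H3, which encodes the sterol sensor LXR alpha, was higher (1.85, adjusted p = 0.000349) and CYP7B1, an oxysterol hydroxylase, lower (-1.25, adjusted p = 0.00609). NCEH1, a cholesterol ester hydrolase, was the 1 of the 8 called higher in TCC (2.02, adjusted p = 0.000470), against 6.82% of all genes. APOE in TCC (-1.04, adjusted p = 0.0364) and NCEH1 in melanoma (-1.02, adjusted p = 0.0433) sat close to the thresholds and each lost its call under 7 of the 10 other settings tried. Each was the 1 of the 8 called lower in its type, against 4.36% and 1.77% of all genes.

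Fatty acid synthesis genes, which share SREBP control, included the largest difference of any pathway list in TCC. Of 13, 4 were called higher there, against 6.82% of all genes, and 1 lower, against 4.36%. The median log2 fold change of the 13 was 0.06, against -0.08 over all kept genes. ELOVL6, a fatty acid elongase, rose by 3.89 (SE 0.66, adjusted p = 0.000406), ME1, malic enzyme, by 3.02 (SE 0.37, adjusted p = 9.34e-06), ACLY, ATP citrate lyase, by 2.20 (SE 0.25, adjusted p = 3.38e-06) and ACSL3, an acyl-CoA synthetase, by 1.41 (SE 0.39, adjusted p = 0.0215), while ELOVL5 was lower (-1.17, SE 0.29, adjusted p = 0.0112). The ACSL3 call was lost when any 1 of the TCC was left out, and that of ELOVL5 without TCC 0 or TCC 2. In lymphoma ELOVL6 (-2.37), ME1 (-2.95), ACSL3 (-1.26) and GPAM (-1.03), the enzyme that opens glycerolipid synthesis, were called lower, 4 of 13 against 12.1% of all genes, of which ACSL3 was at -0.99 without lymphoma 1 and GPAM at -0.92 to -0.98 without any 1 of lymphoma 5, melanoma 1, melanoma 4 or sarcoma 1. The lymphoma comparison holds the high TCC. Of these 4 genes, only ME1 was lower in every lymphoma (6.33 to 7.28) than in every melanoma and sarcoma. In sarcoma ACLY was lower (-1.26, adjusted p = 0.00173) and TMEM97, a sterol-regulated membrane protein, higher (1.24, adjusted p = 0.0208). ACLY in sarcoma (9.33 to 9.97) overlapped lymphoma (9.70 to 10.93) and melanoma (9.58 to 10.74). The TMEM97 call was lost without STS 0, STS 1 or sarcoma 1. COQ2, of ubiquinone synthesis, was the 1 of 8 isoprenoid branch genes called. It was higher in TCC (1.07, adjusted p = 0.0193), against 6.82% of all genes, but not without TCC 1 or TCC 2.

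Members varied together to different degrees. Over 23 tumors HMGCS1 and FDFT1 correlated at Pearson r = 0.87 (Spearman rho = 0.78), SQLE and FDFT1 at 0.76 (rho 0.66) and HMGCS1 and SQLE at 0.74 (rho 0.61). These are descriptions without a p, and the points share tumor types and the array scaling. The HCC carried part of it, and without it the 3 values were 0.80, 0.68 and 0.65. After the mean of each type was taken off in the 19 tumors of the replicated types, HMGCS1 and FDFT1 kept r = 0.63, SQLE and FDFT1 0.55, and HMGCS1 and SQLE 0.27. Among 9971 genes ranked by r with HMGCS1, FDFT1 was number 2 over 23 tumors and number 25 within types.

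The regulators and the last enzyme stood further off. HMGCS1 and INSIG1 correlated at 0.79 over 23 tumors, 0.56 without the HCC and 0.27 within types. DHCR7 followed HMGCS1 at 0.72 over 23 tumors, 0.47 without the HCC and 0.50 within types, but FDFT1 at 0.42, 0.06 and -0.12. SREBF2 reached at most 0.34 with any other kept member over 23 tumors, and within types its values ran from -0.40 with INSIG1 to 0.29 with DHCR7. LSS correlated with the other members between -0.39 and 0.02 over 23 tumors.

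The genes whose pattern over 23 tumors was most like the mean z-score of the members were EBP (r = 0.88), FDPS, which makes farnesyl diphosphate (0.86), IGFBP1, a secreted binding protein for insulin-like growth factors (0.85), ADI1, of methionine salvage (0.85), TM7SF2 (0.85), TOR1B, a torsin of the endoplasmic reticulum (0.84), UQCRQ, a subunit of respiratory complex III (0.84), ACLY (0.83), MSMO1 (0.82) and EIF6, a ribosome assembly factor (0.81). EBP, FDPS, TM7SF2 and MSMO1 are on the sterol list and ACLY on the fatty acid list. Without the HCC and TCC 2, the tumors farthest from the median, r was 0.69, 0.71, 0.52, 0.70, 0.62, 0.70, 0.78, 0.63, 0.69 and 0.63 in the same order. IGFBP1 had the lowest rank correlation of the 10 (rho = 0.41), with 10.47 in the HCC, 7.26 and 7.43 in TCC 1 and TCC 2, and 4.36 to 5.68 in the other 20 tumors.

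The genes most opposed to the member mean were SLC25A36, a mitochondrial nucleotide carrier (r = -0.89), FAR1, a fatty acyl-CoA reductase (-0.87), AKAP13, an anchoring protein for kinase A (-0.85), ZEB2, a transcription factor of mesenchymal cells (-0.79), and ANKRD10 (-0.79). Each was lowest of all in the HCC, for example FAR1 at 6.19 in the HCC, against 7.96, 8.77 and 8.16 in TCC 0 to 2 and 8.55 to 10.94 in the other tumors.

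For the 13 other sterol enzymes the median r with the member mean was 0.72, against -0.07 over all 9966 kept genes that are no member, and 8 of the 13 were among the 100 highest. The median was 0.33 for fatty acid synthesis, 0.09 for efflux, storage and oxidation, 0.05 for the isoprenoid branch, 0.03 for the SREBP regulators and -0.18 for uptake and trafficking. Without the HCC these were 0.14, -0.13, -0.03, -0.03 and -0.09 in the same order. Within types the sterol median was 0.20, against -0.01 over all genes, and the enzymes parted: CYP51A1 (0.72) and FDPS (0.71) were number 1 and number 2 of 9966, whereas TM7SF2 (0.02) and PMVK (-0.54) did not follow the members within types. CYP51A1, which demethylates lanosterol, and PMVK, phosphomevalonate kinase, were named after their values were seen.

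The epithelial list moved with the members, with r = 0.70 between its mean and the member mean over 23 tumors, 0.80 without the HCC and 0.32 within types. All 9 epithelial genes that passed the filter were called higher in TCC, against 6.82% of all genes. Their median log2 fold change was 5.19. The filter needed 3 arrays and there were 3 TCC, so a gene high only in TCC could pass and then be called. The part of epithelial cell content in the TCC values was not tested. The macrophage list ran opposite, at -0.58 over 23 tumors, -0.66 without the HCC and -0.32 within types. The proliferation list, of 20 cell cycle genes, was at -0.20 over 23 tumors, 0.23 without the HCC and -0.01 within types, and was lowest in the HCC at 7.37. The 3′ to 5′ signal ratio of the control probesets, a sign of RNA degradation, in log2 units ran from 2.53 to 4.70 and had r = 0.19 with the member mean.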

How the data were processed

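Per the labels and the methods, total RNA of RIN 8.0 or above was amplified with the NuGEN Ovation Pico WTA system. The intensity values deposited by the authors are linear MAS5 signals, 1 for each probeset and array, scaled array by array, with no version of MAS5 stated. The platform annotation names 1 gene for 29254 of the 42860 probesets other than controls, several genes for 439 and none for 13167. Its symbols were not updated. The number of arrays limits the precision.

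The mean of log2(signal + 16) over its probesets was taken for each gene. Of 15115 genes, 9972 were kept because 3 or more arrays exceeded 7.03, the median over genes and arrays. Types were fitted with limma 3.58.1 under R 4.3.3 (a linear model with moderated variances that follow a trend in level, two-sided, Benjamini-Hochberg over the kept genes within each comparison). The fit was tested on simulated data. p-values measure the spread between tumors of different dogs. Single tumors are differences from the mean of the other 22.

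Named genes are the members, each listed pathway gene called in at least 1 of the 4 comparisons, and the 10 most and 5 least correlated with the member mean. Exceptions are marked. The members and lists were chosen with earlier results of these data known. Promoter sequences were not used here. Alternatives were other pseudocounts, quantile normalization, no filter, the brightest probeset, no variance trend, the title number as a block, all tumors as 2 groups, adjusted p alone, STS only, and leaving out each tumor. The use of the 6 kept members without LSS was added after seeing the data.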

Additional observations from a re-analysis of the deposited data

Results flagged for a closer look

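In 3 of 21 groups of 4 to 7 tumors, over 7 members and 3 types, 1 tumor lay far from the others of its type by Dixon's test, which flags about 1 group in 20 by chance. LSS was 6.10 in sarcoma 0, against at most 4.33 in the other 3 sarcomas. FDFT1 was 10.47 in STS 1, against at most 9.34 in the other 3. INSIG1 was 7.55 in melanoma 0, against at most 6.41 in the other 4 melanomas.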

How the results depend on the processing

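Counts of called members under pseudocounts of 1 and 64, quantile normalization, no filter and no variance trend were the same in each type as reported. With the brightest probeset of each gene, 2 members were called in lymphoma and 0 in melanoma. With the title number as a replicate block, 0 were called in lymphoma, 0 in melanoma, 4 over the 6 pairs and 2 by the F test. Same-numbered tumors of different types correlated at 0.0105 on average (-0.122 to 0.0881), against -0.0022 for different numbers, so the numbers do not pair tumors. With all 23 tumors as 2 groups, which puts the HCC among the others, 0 were called in lymphoma, melanoma and TCC. With the adjusted p alone, or STS only, 2 were called in melanoma. STS only gave 4 calls in TCC, with INSIG1 as the fourth. Leaving out 1 tumor gave 1 to 2 calls in melanoma, 1 to 4 in TCC, 2 to 11 over the pairs and 2 to 4 by the F test, and the lowest count in TCC and over the pairs came without TCC 2. For the 6 kept members without LSS, the mean difference in the HCC was 3.05. The median correlation of the sterol enzymes with the member mean was 0.204 for deviations from the type mean, 0.685 without the HCC and 0.715 to 0.750 with 1 tumor left out. Signals near the noise limit LSS, the fainter INSIG1 probeset, and SREBF2 in the HSA, the histiocytic sarcoma and sarcoma 1.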
